A study of Mus musculus with 20 samples.

Results

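The genes described here are 9 that mark the identity of B lymphocytes, Ms4a1, Cd79a, Cd79b, Pax5, Cr2, Fcer2a, Cd22, Blk, and Ebf1. They were chosen by name, and all 9 were found among the 55401 genes of the deposited count table, each in a single row. Poly(A)-captured RNA was sequenced from wild-type (WT) mice and from mice with a homozygous deletion of Nsun6 (Nsun6 KO). The organs were spleen, heart, kidney, liver, and small intestine, with 2 libraries for each genotype in each and 20 in all. Nsun6 is an RNA methyltransferase that makes 5-methylcytosine in mRNA. The mice were 8-week-old females of the C57BL/6J background, and the KO strain lacked exons 3 and 4 of Nsun6, removed with CRISPR/Cas9 in fertilized eggs. The tissues were of unchallenged animals as far as the labels state, and no group carried another allele or agent. The methods describe the libraries of a group as biological replicates. No label ties a library of one organ to an animal or to a library of another organ.

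B cells are made in the bone marrow and gather in lymphoid follicles, which form the white pulp of the spleen and, in the intestinal wall, the Peyer's patches and smaller isolated follicles. The transcription factors Ebf1 and Pax5 set and hold the B cell program, and the other genes encode proteins of the B cell surface and the kinase attached to it. Most of them are switched off when a B cell becomes an antibody-secreting plasma cell. Most of the set, though not each gene of it, thus leaves out plasma cells of the gut wall or the spleen. A piece of tissue that includes a follicle therefore carries these transcripts, and a piece of the same organ without one carries few.

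The 9 genes lie on 7 chromosomes of the mouse genome (GRCm38). Ms4a1 is on chromosome 19 from 11249675 to 11266241, Cd79a on chromosome 7 from 24897381 to 24902197, and Cd79b on chromosome 11 from 106311341 to 106314762. Pax5 is on chromosome 4 from 44524757 to 44710487, Cr2 on chromosome 1 from 195136811 to 195176716, and Fcer2a on chromosome 8 from 3681737 to 3694175. Cd22 is on chromosome 7 from 30865402 to 30880342, Blk on chromosome 14 from 63372836 to 63417037, and Ebf1 on chromosome 11 from 44617317 to 45008091. The exons of Pax5 share 761 bases with Gm12462 and 5730488B01Rik, and those of Cd22 share 479 bases with Gm29439. Reads there cannot be told apart if strand was not used in counting. The other 7 genes share no exon bases with an annotated neighbor.

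Since Ebf1 is itself a member, and its protein binds a palindromic motif, the promoters were searched for it. RefSeq (GRCm38.p6) gave promoters of 300 bases, 250 before and 50 after a transcript's start, for 6 of the 9 genes (Cr2, Pax5, Cd79a, Cd22, Fcer2a, and Ebf1). An exact match to the EBF motif, searched as TCCCNNGGGA, was found in Cd22 and in none of the other 5 genes with a promoter. These letters read the same on both strands. Sites that vary from them were not searched for, so the other 5 genes may still hold an EBF site. The exact motif occurs in 0.904% of the 32851 promoters of this length. The octamer ATGCAAAT, bound by the Oct factors of B cells and searched on both strands, is in 1.74% of those promoters and was found in none of the 6 genes. The stretch just upstream of the Cd22 start is shown because it holds the one match. It covers the 148 bases before the RefSeq start (chr7:30879029-30879176, minus strand, 5′ to 3′), lies in an intron of the longer Cd22 transcripts, and has the EBF motif in capitals.
Cd22: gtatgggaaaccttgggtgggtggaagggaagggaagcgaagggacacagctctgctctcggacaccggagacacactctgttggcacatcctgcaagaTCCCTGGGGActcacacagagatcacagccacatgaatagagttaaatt
The motif starts at position -49 from the transcript's start. A match in letters is a description of the sequence, and binding was not measured.

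The libraries held between 15897446 and 44508197 counts, with a median of 28513950. Levels are given as TPM (counts divided by gene length and scaled to the same total in each library), so that genes can be compared with each other, and as counts where they are low. Marker lists matched the labelled organs. The summed level of hepatocyte genes was 195400 to 280600 TPM in the liver, that of cardiomyocyte genes 34440 to 42350 TPM in the heart, that of kidney tubule genes 2541 to 5690 TPM in the kidney, and that of enterocyte genes 2123 to 7154 TPM in the small intestine. Some libraries stood apart. The spleen library WT2 had 7090 TPM of hepatocyte genes against 18.7 to 329 TPM in the other spleen libraries. Small intestine libraries WT1 and KO1 had 41400 and 40600 TPM of the distal intestine markers Fabp6 and Slc10a2, while WT2 and KO2 had 3.502 and 6.647 TPM, which places replicate 1 of each genotype in a more distal stretch of intestine than replicate 2. Small intestine KO1 also had 295 TPM of cardiomyocyte genes, against 3.06 to 8.81 TPM in the other intestine libraries. Reads over the whole Nsun6 gene do not check the genotype, since the KO allele keeps the other exons. Nsun6 was at 4.84 and 3.42 TPM in the WT spleens and at 2.91 and 4.88 TPM in the KO spleens.

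All 9 genes were at their highest in the spleen. The spleen is the only lymphoid organ of the 5, and the summed level of the 9 genes there was 5345 and 4359 TPM in WT and 4020 and 3109 TPM in KO. In the other 16 libraries the sum was between 2.70 and 334 TPM. In bulk tissue, fewer B cells and less RNA per B cell cannot be told apart.

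The 2 signaling chains of the B cell receptor were the most abundant members. Cd79b, which pairs with Cd79a to carry the receptor's signal into the cell, stood at 2278 and 1959 TPM in the WT spleens and at 1757 and 1330 TPM in the KO spleens. Cd79a was at 1565 and 1238 TPM in WT and at 1164 and 699 TPM in KO. Ms4a1, which encodes the surface protein CD20, was at 347 and 328 TPM in WT and at 231 and 341 TPM in KO. KO2 was the lowest library for both receptor chains, and KO1 was the lowest for Ms4a1.

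The members also include receptors for other ligands. Fcer2a, the low-affinity IgE receptor CD23 of follicular B cells, was at 270 and 180 TPM in the WT spleens and at 197 and 174 TPM in the KO spleens. Cr2, the receptor for complement fragments that is carried by B cells and follicular dendritic cells, was at 229 and 129 TPM in WT and at 156 and 176 TPM in KO. Both genes thus had their highest level in the library WT1, and the genotypes overlapped for both.

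The inhibitory receptor Cd22 was at 189 and 158 TPM in the WT spleens and at 157 and 128 TPM in the KO spleens. The Src-family kinase Blk, which acts just below the B cell receptor, was at 279 and 217 TPM in WT and at 232 and 168 TPM in KO. Of the 2 transcription factors, Pax5 was at 154 and 117 TPM in WT and at 99.4 and 73.2 TPM in KO. Ebf1 had the lowest spleen level of the 9 genes, 35.2 and 33.9 TPM in WT and 26.6 and 20.7 TPM in KO. KO2 was the lowest spleen library for all 4 of these genes.

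**Figure D1:**
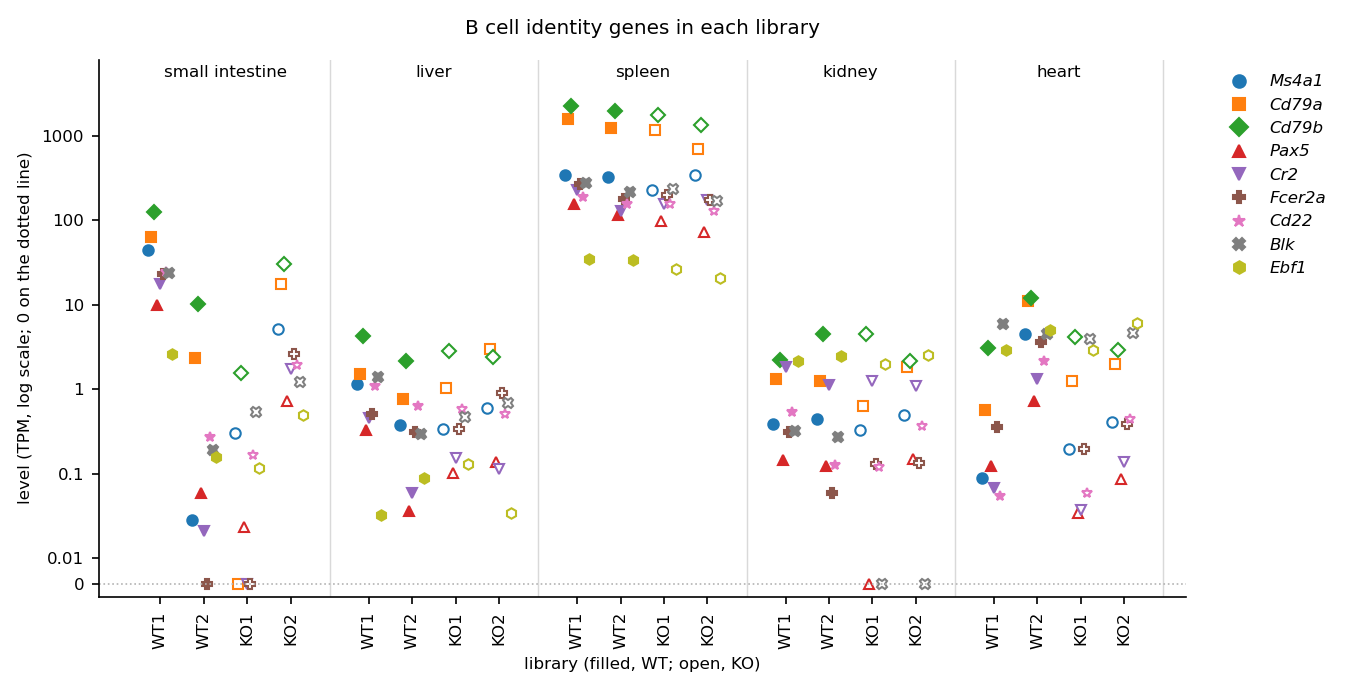
Level of each of the 9 B cell identity genes in each of the 20 libraries, in TPM on a log scale, with WT libraries filled, KO libraries open, and levels of 0 on the dotted line. The spleen libraries sit above all others for every gene, small intestine WT1 sits above the other intestine libraries, and Ebf1 and Blk are raised in all 4 heart libraries.

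The difference between the spleen and the other organs was tested in one fit of all 20 libraries with organ and genotype as terms (edgeR's quasi-likelihood test, Benjamini-Hochberg adjustment over 23159 genes, called at an adjusted p under 0.1 and a fold over 2). All 9 genes were higher in the spleen than in each of the 4 other organs, where 25.5% of all genes tested were called higher in the spleen than in the small intestine, 30.1% than in the liver, 24.4% than in the kidney, and 27.8% than in the heart. Since the members were chosen as B cell genes and the spleen is the lymphoid organ here, this contrast is mainly a description. The log2 fold changes ran from 4.61 (Cd22) to 5.49 (Pax5) against the small intestine, and from 6.68 (Cd22) to 8.82 (Cr2) against the liver. Against the kidney they ran from 3.19 (Ebf1) to 10.4 (Blk), and against the heart from 2.16 (Ebf1) to 8.65 (Cr2). The standard errors were between 0.63 and 1.66, and the highest adjusted p was 0.00765 (Ms4a1 against the small intestine, edgeR). With the WT libraries alone, 5 genes (Cd79a, Cd79b, Pax5, Blk, and Ebf1) were called higher in the spleen than in the small intestine (17% of all genes), where the WT libraries differed widely from each other.

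**Figure D2:**
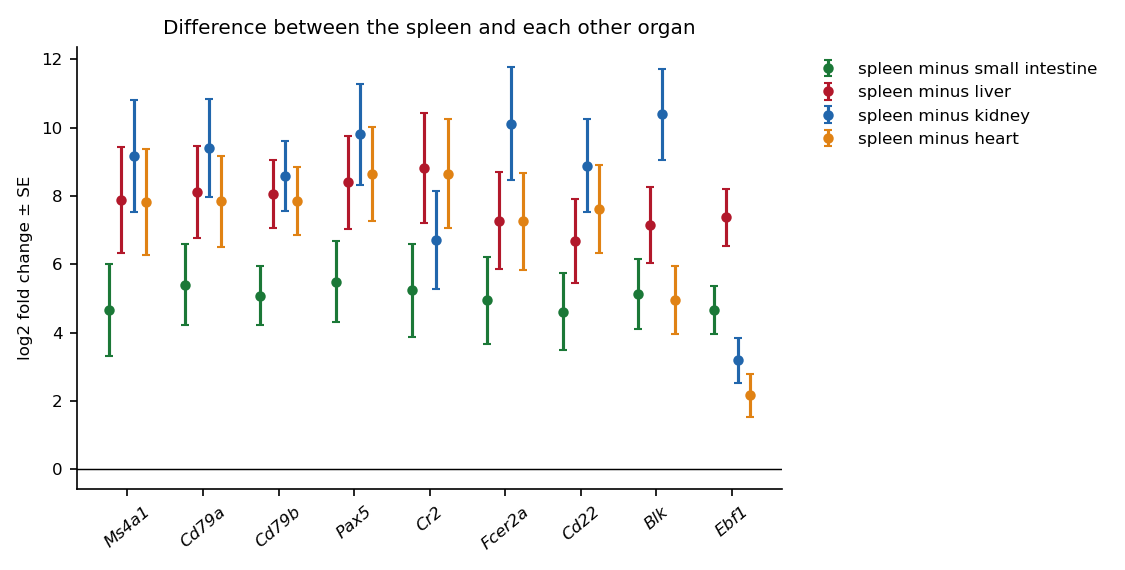
Log2 fold change of each gene between the spleen and each other organ. Bars show the standard error derived from the edgeR test over 20 libraries. Every point lies above 0, and Ebf1 against the heart (2.16) and kidney (3.19) and Blk against the heart (4.95) lie below the rest of their organ.

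Outside the spleen, the order of the organs was the same for few genes. Each gene's 4 spleen libraries lay above all 16 other libraries. The small intestine came second by its median for 6 genes (Ms4a1, Cd79a, Cd79b, Pax5, Fcer2a, and Cd22), but its range overlapped that of the next organ for each of them. Blk and Ebf1 had the heart in second place, and Cr2 had the kidney. The only neighbors in this order whose ranges did not overlap, besides the spleen, were the heart and the kidney for Ebf1.

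Ebf1 was the member that departed most from the others. It was at 2.93 and 5.02 TPM in the WT hearts and at 2.89 and 6.08 TPM in the KO hearts, with 187 to 839 counts, which is 9.58% to 20.1% of its median spleen level. In the kidney it was at 2.19 and 2.44 TPM in WT and at 2.01 and 2.55 TPM in KO, or 6.64% to 8.44% of its median spleen level. In the same heart libraries except WT2, the 7 members other than Ebf1 and Blk were at 0.0224% to 0.285% of their spleen levels. Ebf1 is known to act in stromal and fat cells as well as in B cells. The summed level of fibroblast and pericyte genes was 1165 and 1530 TPM in the WT hearts and 1057 and 1456 TPM in the KO hearts. This was the order of Ebf1 within each genotype, but WT2 was above KO2 for the list and below it for Ebf1. The list was at 128.5 to 173.8 TPM in the liver, where Ebf1 was at 0.0321 to 0.130 TPM. In the kidney, with more Ebf1, the list was at 106.5 to 178.4 TPM. The part of these cells in the Ebf1 level was not tested.

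Blk was the other exception in the heart. It had 115 and 159 counts in the WT hearts and 70 and 179 counts in the KO hearts, or 5.87, 4.56, 3.92, and 4.69 TPM, which is 1.74% to 2.61% of its median spleen level. Its level in the heart thus varied little between libraries in which Ms4a1 went from 0.0890 to 4.53 TPM. In the kidney, Blk had 8 counts in each WT library and 0 in each KO library. A count of 3 would be 0.113 TPM in KO1 and 0.114 TPM in KO2, so a level below that was not detectable at this depth.

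In the kidney, Cr2 was the member that stood out beside Ebf1. It had 138 and 99 counts in WT and 101 and 88 counts in KO, or 1.83, 1.11, 1.26, and 1.11 TPM. These values are 0.668% to 1.11% of its median spleen level, while Ms4a1 in the kidney was at 0.0984% to 0.148% of its own. Ms4a1 itself was steady there, at 0.385 and 0.443 TPM in WT and at 0.329 and 0.496 TPM in KO. Cd79b was at 2.19 and 4.53 TPM in WT and at 4.49 and 2.15 TPM in KO, and Cd79a was at 1.34 and 1.25 TPM in WT and at 0.629 and 1.83 TPM in KO. Pax5 had 12 counts in each WT library, 0 in KO1, and 13 in KO2, and Cd22 had 25 and 7 counts in WT and 6 and 18 counts in KO. The genotypes overlapped for these 5 genes. Fcer2a had 2 to 9 counts in the kidney libraries and, with Blk, did not pass the filter on low counts there.

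The liver held these transcripts at a low level. The median of the 9 genes, as a percent of their spleen levels, was 0.273% and 0.117% in the WT livers and 0.154% and 0.181% in the KO livers. Cd79b was at 4.22 and 2.18 TPM in WT and at 2.87 and 2.43 TPM in KO. Ebf1 had 4 to 17 counts in a liver library, at most 0.430% of its median spleen level. WT1 was the highest liver library for 6 of the 9 genes. Ms4a1 was at 1.15 and 0.375 TPM in WT and at 0.337 and 0.607 TPM in KO, and Blk at 1.39 and 0.297 TPM in WT and at 0.470 and 0.696 TPM in KO. Cd79a and Fcer2a were instead highest in KO2, at 2.99 and 0.893 TPM, against 1.51 and 0.507 TPM in WT1. Cd22 kept the highest share of its spleen level in 2 of the 4 liver libraries, 0.692% in WT1 and 0.404% in WT2. Pax5 had 37 and 4 counts in WT and 12 and 22 counts in KO, and Cr2 had 47 and 6 counts in WT and 17 in each KO library.

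The small intestine libraries differed from each other more than the genotypes did. Ms4a1 was at 44.3 and 0.0280 TPM in the WT libraries and at 0.305 and 5.12 TPM in the KO libraries, from 3380, 2, 18, and 329 counts. Cd79b was at 125 and 10.3 TPM in WT and at 1.54 and 30.4 TPM in KO. Cr2 was at 17.5 and 0.0213 TPM in WT, was not detected in KO1, where 3 counts would be 0.0386 TPM, and was at 1.73 TPM in KO2. The order was WT1 first and KO2 second for all 9 genes.

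The other 6 members repeated this order. Cd79a was at 63.4 and 2.38 TPM in the WT intestines and at 17.4 TPM in KO2, and it was not detected in KO1, where 3 counts would be 0.216 TPM. Fcer2a had 875 counts in WT1 and 83 in KO2, and 0 in both WT2 and KO1, where 3 counts would be 0.0840 and 0.102 TPM. The 2 genes without a count in KO1 beside Cr2 are thus a receptor chain and the follicular IgE receptor. Cd22 was at 24.3 and 0.275 TPM in WT and at 0.166 and 1.93 TPM in KO, and Blk was at 23.6 and 0.193 TPM in WT and at 0.544 and 1.21 TPM in KO. The transcription factor Pax5 was at 9.95 and 0.0587 TPM in WT and at 0.0237 and 0.718 TPM in KO. Ebf1 had the narrowest span of the 9, with 2.61 and 0.160 TPM in WT and 0.118 and 0.493 TPM in KO.

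Summed over the 9 genes, the small intestine libraries had 334 and 13.4 TPM in WT and 2.70 and 61.6 TPM in KO. As a percent of the spleen level, the median gene was at 10.5% in WT1, with a range from 5.28% (Cd79a) to 15.5% (Cd22). It was at 0.0856% in WT2, 0.0828% in KO1, and 1.37% in KO2. The stretch of intestine did not order the libraries, since the distal library of WT had the highest sum and the distal library of KO the lowest. Among the distal libraries WT exceeded KO, and among the proximal libraries KO exceeded WT. The sum in WT2 was mostly Cd79b (10.3 TPM) and Cd79a (2.38 TPM). Ms4a1 and Blk were higher in KO1 than in WT2, Fcer2a had 0 counts in both, and the other members were higher in WT2.

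Other lymphoid and follicle genes were set beside the members in the same libraries. The T cell list (16 genes, among them Cd3e, Cd4, and Cd8a) summed to 365 and 369 TPM in WT and to 55.0 and 334 TPM in KO. The ratio of the members to T cell genes was thus 0.915 in WT1, 0.0363 in WT2, 0.0491 in KO1, and 0.185 in KO2, against 0.950 to 1.95 in the 4 spleen libraries. WT1 and WT2 thus had alike sums of T cell genes beside sums of the members that differed widely. The plasma cell list summed to 1008 and 2040 TPM in WT and to 436 and 1857 TPM in KO, an order unlike that of the members, with the highest sum in WT2.

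Genes of the follicle were also measured. The follicle stroma list (5 genes, among them Cxcl13 and Madcam1, with 2 or 3 of the 5 at 0 counts in each intestine library) summed to 118 and 2.33 TPM in WT and to 3.17 and 26.95 TPM in KO. Cxcl13, the chemokine that draws B cells into follicles, had 1588 and 23 counts in WT and 12 and 278 counts in KO. The sum of the follicle stroma list, most of which is Cxcl13 in WT1 and KO2, thus ranked WT1 first and KO2 second, as the members did. The sum of the follicle-associated epithelium list ranked otherwise, with 117 and 57.5 TPM in WT and 79.8 and 39.8 TPM in KO. The median of its genes, as a percent of the spleen level, was 78.25% and 40.94% in WT and 3.797% and 44.89% in KO. By this median WT1 was first and KO2 second, with 2 of the 6 genes at 0 counts in KO1. The germinal center list as a whole was highest in KO1, with 65.4 and 17.1 TPM in WT and 218 and 36.3 TPM in KO. This came from Rgs13, a gene that tuft cells also express, with 3314 counts in KO1. The median gene of this list was highest in WT1, at 166.5% of the spleen level. It was at 12.4% in WT2, 19.05% in KO1, and 15.99% in KO2.

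The heart had 1 library that stood apart. Ms4a1 had 4 and 362 counts in the WT hearts and 8 and 36 counts in the KO hearts. Fcer2a had 8 and 145 counts in WT and 4 and 17 counts in KO, and Cd22 had 2 and 139 counts in WT and 2 and 32 counts in KO. The median of the 9 genes was at 1.35% of the spleen level in WT2, against 0.115% in WT1, 0.104% in KO1, and 0.166% in KO2. For Cd79a the WT hearts had 6 and 209 counts and the KO hearts 12 and 41, and for Cd79b the WT hearts had 32 and 222 counts and the KO hearts 39 and 59. Pax5 had 82 counts in WT2, with 8 in WT1, 2 in KO1, and 11 in KO2. Cr2 had 141 counts in WT2, with 4 in WT1, 2 in KO1, and 16 in KO2. In TPM, KO2 was above WT1 and KO1 for Ms4a1, Cd79a, Cr2, Fcer2a, and Cd22, and far below WT2 for all of them.

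The heart library WT2 also held transcripts of T cells and of lymphocyte precursors. The T cell list summed to 24.9 and 68.4 TPM in the WT hearts and to 21.6 and 27.01 TPM in the KO hearts. Rag1, the recombinase of lymphocyte precursors in the bone marrow and thymus, had 139 counts in WT2 and 0, 0, and 4 counts in WT1, KO1, and KO2. Dntt, the polymerase that adds bases at antigen receptor joints, had 51 counts in WT2 and at most 4 in the others. Ccl21a, a chemokine of lymphoid stroma, had 270 counts in WT2 and 0 in each of the other hearts. The adipocyte list summed to 6.81 and 545 TPM in WT and to 13.3 and 212 TPM in KO. The part of these other tissues in the B cell gene levels of WT2 was not tested.

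The comparison of KO with WT was made in each organ separately (quasi-likelihood test of edgeR, adjusted over all genes of the organ, called at an adjusted p under 0.1 and a fold over 2). None of the 9 genes was called in the small intestine, liver, spleen, or heart, and none of the 7 that could be tested in the kidney. The share of all genes called was 0.223% in the spleen and 0.0509% in the liver, and 0.0% in the heart, the kidney, and the small intestine, so a count of 0 among 9 genes does not set the members apart from the rest. DESeq2 called none of the members in any organ either. At an unadjusted p under 0.05 the edgeR test gave 2 members in the spleen (Pax5 and Ebf1) and 3 in the heart (Pax5, Cr2, and Fcer2a), where 5.14% and 0.703% of all genes passed. It gave 0 members in the liver, the kidney, and the small intestine, where 4.7%, 0.638%, and 2.39% of all genes passed. In the heart, the 3 members passed the filter on low counts only through WT2, so their number does not measure genotype.

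In the spleen, where the counts were high (2330 to 42650 per gene and library), the differences between genotypes were small. The log2 fold change, KO minus WT, was -0.49 for Pax5 (standard error 0.20, adjusted p = 0.918, edgeR) and -0.39 for Ebf1 (standard error 0.17, adjusted p = 0.967, edgeR). It was -0.44 for Cd79a (standard error 0.25) and -0.30 for Cd79b (standard error 0.18). The other 5 genes were between -0.16 (Blk) and 0.06 (Cr2), with standard errors of 0.17 to 0.25. The median of the 9 genes was -0.16, with 8 below 0 and 1 above, while the median of all 18834 genes tested was 0.01. Without WT2, the spleen library with hepatocyte transcripts, the median of the members was -0.34 and none was called. It was -0.42 without KO1, -0.12 without KO2, and -0.08 without WT1. Both KO spleens were below both WT spleens, on the scale of normalized counts, for 3 members (Cd79b, Pax5, and Ebf1), a pattern that 14.4% of all genes tested in the spleen showed. In TPM, Cd79a and Cd22 also had both KO spleens below both WT spleens. The share of all genes with this pattern in TPM was not computed.

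Other B cell genes in the spleen gave a like picture. Of 22 genes of B cell receptor signaling, 0 were called (0 also at an unadjusted p under 0.05, edgeR) and 19 had a log2 fold change below 0. Their median was -0.16. The lowest were Syk, the kinase that binds the phosphorylated Cd79 chains (-0.28, standard error 0.17), and Nfatc1 (-0.26), and the highest were Cd81 (0.10) and Malt1 (0.09). Of 21 other B lineage genes 0 were called (1 at an unadjusted p under 0.05), with 17 below 0 and a median of -0.16, from -0.64 for Vpreb3 (adjusted p = 0.701, edgeR) and -0.37 for H2-Oa to 0.06 for Hvcn1 and 0.05 for Cd180. Of 16 T cell genes 15 were above 0, with a median of 0.12 and none called. The ratio of the members to T cell genes was 1.38 and 1.95 in the WT spleens and 1.41 and 0.950 in the KO spleens, which overlap.

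Erythroid genes were higher in the KO spleens, and other lists were set beside them. Of the 11 erythroid genes measured, 7 were called higher in KO, where 0.223% of all genes tested in the spleen were called in either direction. The median over the 11 was 1.57 on the log2 scale, and their summed level was 1034 and 1191 TPM in the WT spleens and 2924 and 3320 TPM in the KO spleens. The 4 globins summed to 60510 and 80730 TPM in WT and to 121700 and 142200 TPM in KO, which takes a larger share of the counts in KO. The adipocyte list (6 genes tested) had a median log2 value of 1.65 with none called, at 76.7 and 22.5 TPM in the WT spleens and at 152 and 133 TPM in the KO spleens. The part of these transcripts in the small negative values of the B cell genes was not tested. The germinal center list was at 54.5 and 61.2 TPM in WT and at 51.1 and 90.8 TPM in KO, and the plasma cell list at 1440 and 1406 TPM in WT and at 1632 and 2667 TPM in KO. In KO2, the spleen library with the lowest sum of the members, the sums of these 2 lists were at their highest. The median plasma cell gene differed less, at 100.7% and 92.57% of the spleen level in WT and at 96.82% and 105.6% in KO. The median germinal center gene was at 81.16% and 116.4% in WT and at 74.85% and 183.7% in KO. The value for Jchain, the chain that joins secreted antibody units, was 0.85 ± 0.27 (log2 fold change ± standard error, adjusted p = 0.617, edgeR).

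In the small intestine all 9 fold changes were negative, with wide errors. They ran from -3.63 for Blk (standard error 2.02) to -1.69 for Cd79a (standard error 2.46), with a median of -2.92 and an adjusted p of 0.9999 for each (edgeR). The genotypes overlapped for all 9 genes. The direction came from 1 library. Without small intestine WT1, all 9 fold changes turned positive, with a median of 1.95, and without KO2 the median was -6.33. With the replicate number, which here goes with the stretch of intestine, as a block, the median was -1.85 and none was called. None of the other lymphoid lists in the small intestine had a gene called.

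In the heart, the median log2 fold change of the members was -2.03, from -2.87 for Cr2 (standard error 1.21) to 0.14 for Ebf1 (standard error 0.32). Ms4a1 (-2.81, standard error 1.29), Pax5 (-2.69, standard error 0.97), and Fcer2a (-2.67, standard error 1.01) were also low in KO relative to the mean of WT. This too came from 1 library. Without heart WT2, Pax5, Cr2, and Fcer2a fell under the filter on low counts, and the other 6 had a median of 0.84, with 5 above 0. Without heart WT1, which leaves WT2 as the only WT library, Ms4a1 was called lower in KO (-3.72 on the log2 scale, with an adjusted p of 0.00507 from edgeR). On the scale of normalized counts both KO hearts were below both WT hearts for Pax5 and Fcer2a, 2 of 9 members, against 9.66% of all genes tested there. These 2 genes passed the filter on low counts only through WT2, so their number does not measure genotype either. In TPM the genotypes overlapped for Fcer2a.

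In the liver 6 members were below 0 and 3 above (Cd79a, Fcer2a, and Ebf1), with a median of -0.24. Without liver WT1 this median was 0.94. In the kidney all 7 members tested were below 0, with a median of -0.21, and without WT2 the median was 0.23. On the scale of normalized counts the KO libraries were both below the WT libraries for Cd22 in the liver and for Cr2 in the kidney, against 16.1% and 11.2% of all genes tested. In TPM the genotypes overlapped for Cr2.

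**Figure D3:**
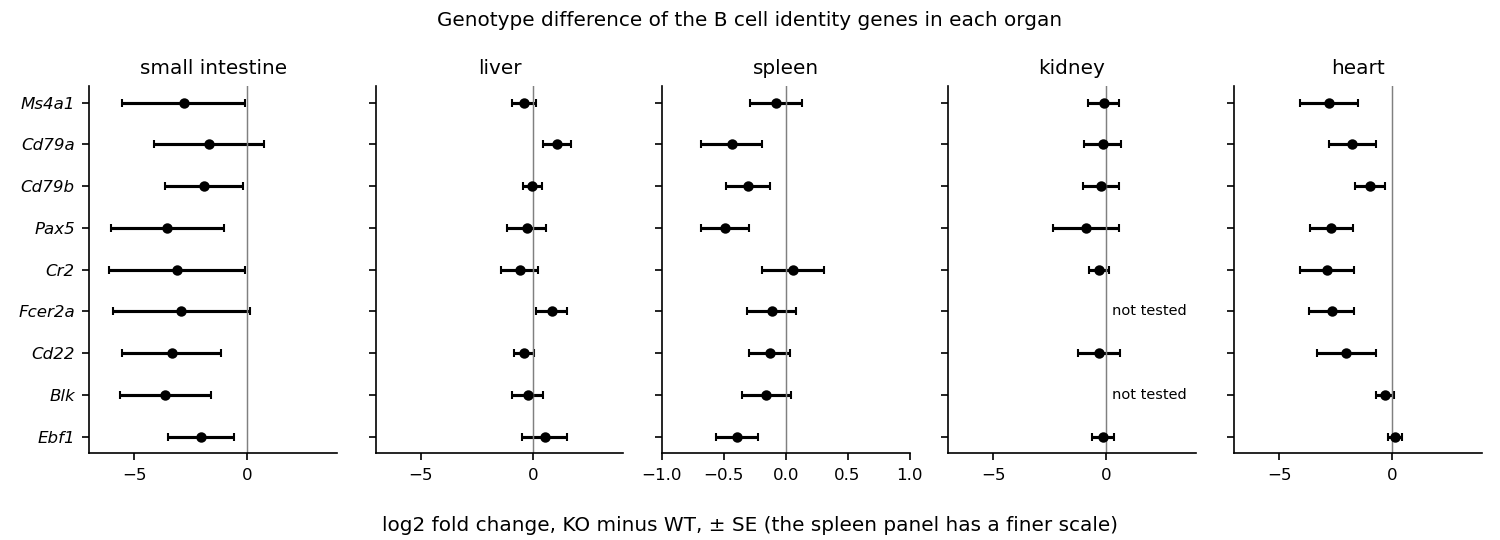
Log2 fold change of KO minus WT for each gene in each organ, with a finer axis for the spleen. Bars show the standard error derived from the edgeR test over 4 libraries. The spleen values lie between -0.49 and 0.06, the small intestine and heart values reach -3.63 and -2.87 with wide bars, and none of the members was called.

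Whether the genotype difference varied between organs was tested with an interaction term over all 20 libraries. No member was called (0 of 9, and 0.0% of the 23159 genes tested), and the lowest unadjusted p was 0.166 for Blk (adjusted p = 1, edgeR). With no filter on low counts, 7 members were called (all but Cd79b and Ebf1), along with 2.66% of the 36620 genes then tested. The number was also 7, with 2.75% of all genes, when small intestine WT1 was left out of that unfiltered fit. Heart WT2 was not left out of it. All 9 members were also in the filtered fit, so the 7 calls depend on which other genes enter the fit. Libraries of the same group differed widely, as with 3380 and 2 counts of Ms4a1 in the WT intestines. DESeq2's likelihood ratio test on the filtered genes called 0 members.

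**Figure D4:**
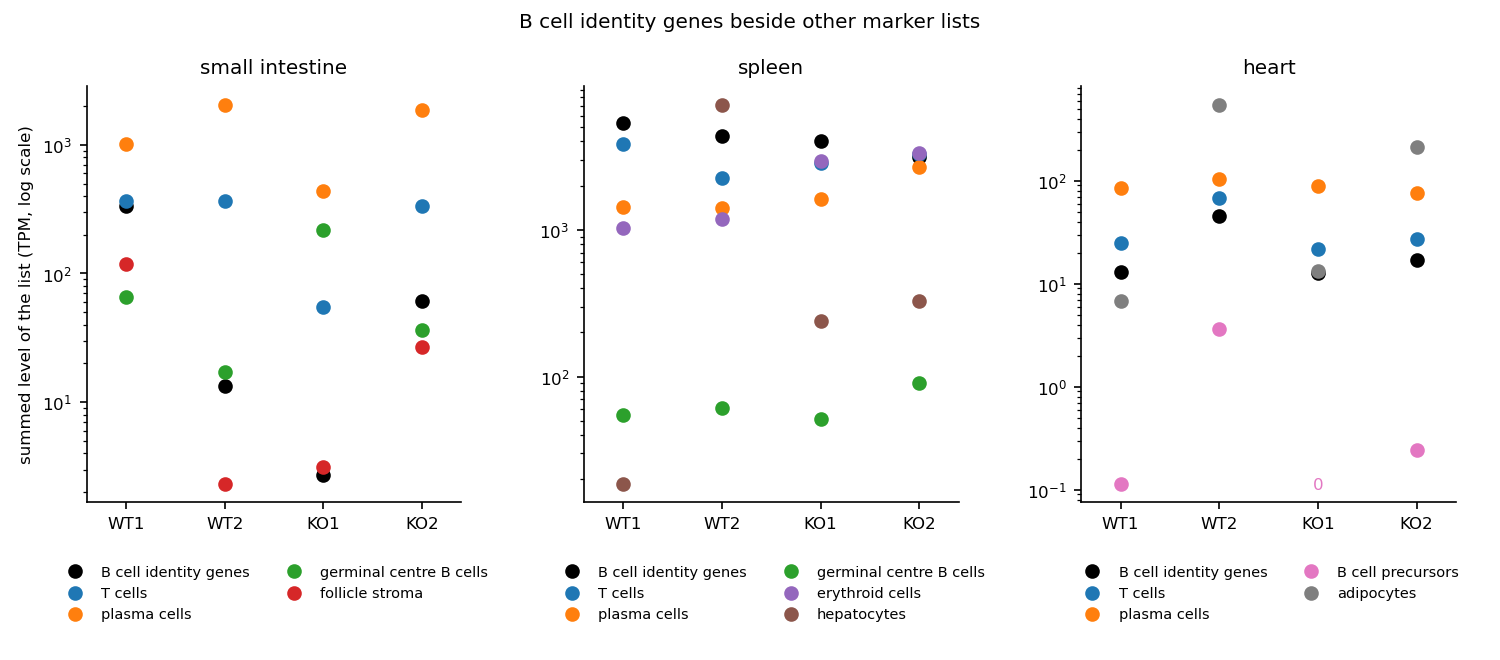
Summed TPM of the 9 B cell identity genes and of other marker lists in each library of the small intestine, spleen, and heart, on log axes, with a level of 0 written as a digit on the axis. In the small intestine WT1 and then KO2 are highest for the members and for the follicle stroma list but not for the T cell list, in the spleen the erythroid list is higher in both KO libraries, and in the heart WT2 is highest for the members, T cells, B cell precursors, and adipocytes.

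The 9 genes varied together from library to library. After the mean of each organ was subtracted from the normalized log2 counts, the correlation of a member with another, over 20 libraries, had a median of 0.786 over the 36 pairs and ran from 0.572 (Cd79a with Blk) to 0.958 (Cr2 with Fcer2a). Blk and Ebf1 were the least tied to the rest, with median correlations of 0.677 and 0.724 with the other 8. These correlations are descriptions, since libraries of one organ share their tissue and the wide spread of the small intestine and heart libraries enters all of them.

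Among the genes most like the mean of the 9 over the 20 libraries were H2-Ob (r = 0.990), Fcrl1 (0.986), Ighd (0.982), Gm31499 (0.982), Tspan32 (0.979), A630001G21Rik (0.976), Ighm (0.976), and Cd2 (0.974). By the same measure the members themselves ran from 0.702 (Ebf1) and 0.895 (Blk) to 0.986 (Pax5). H2-Ob encodes a chain of an antigen-loading regulator in B cells, Ighd and Ighm the heavy chains of naive B cells, and Cd2 is shared with T cells. After organ means were subtracted, the most alike included Fcrl1 (0.967), H2-Ob (0.961), Ighd (0.961), Bank1 (0.945), Ighm (0.942), Izumo1r (0.941), Ccr7 (0.939), and Igkv2-112 (0.937). Fcrl1, H2-Ob, Ighd, and Ighm were thus among the most alike by both measures.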

How the data were processed

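The authors trimmed paired-end reads of a stranded poly(A) library with cutadapt, mapped them to the mouse genome (mm10) with HISAT2 2.1.0, and counted them per gene over exons with featureCounts 2.0.1 and the Ensembl GRCm38 annotation. The deposited values are raw counts. The methods give options for strand and read pairs that the stored command does not hold, so mates may have been counted separately and strand may not have been used. Each library's total and the spread between libraries set the precision. A count of 3 was taken as the floor where a gene had 0 counts.

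From these counts, KO was compared with WT in each organ with edgeR 4.0.16 (TMM, filterByExpr, robust quasi-likelihood test, genotype as the only term), and organs were compared in a fit of all 20 libraries. The threshold for a call was a fold over 2 with an adjusted p (Benjamini-Hochberg) under 0.1. DESeq2 1.42.0 (R 4.3.3), other filters, size factors and thresholds, a replicate block, and leaving out each library in turn were the alternatives. The unfiltered interaction fit without 1 library was chosen after seeing the data. TPM were computed with the lengths in the table. The scripts were tested on simulated counts.

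The 9 genes, the marker lists and the tests were chosen with earlier results of these data known. The genes named beside the 9 are, for a described list, those called (at most 5) and the 2 highest and 2 lowest fold changes, and genes from the 10 most correlated with the mean of the 9, some of which are not reported here. Cxcl13, Rag1, Dntt, Ccl21a and Rgs13 in single libraries were named after their values were seen. No samples were left out.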

Additional observations from a re-analysis of the deposited data

How the results depend on the processing

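The counts of members called were the same under nearly all alternatives: 0 in every organ for KO against WT and 9 in every contrast with the spleen. The exceptions were the heart, where leaving out 1 library gave 0 to 1 called, the spleen against the small intestine in WT libraries alone (5), and the interaction with no filter on low counts (7, and 7 without small intestine WT1). The cause was not tested. The groups share replicate numbers, but with 2 libraries a group and no label that ties them to an animal the numbers were not taken to pair the samples, although in the small intestine they go with the stretch of gut. With a replicate block the number of members called stayed 0 in each organ, and the median of the members on the log2 scale was -0.17 for the spleen and -1.85 for the small intestine. The replicate differences of WT and KO correlated at 0.481 in the small intestine, 0.248 in the heart, and 0.0121 to 0.073 in the other organs. In the heart, WT2 and KO2 had 36090637 and 41763236 counts in total, against 17959542 in WT1 and 15897446 in KO1. Their adipocyte sums were also the higher ones, 545 and 212 TPM against 6.81 TPM in WT1 and 13.3 TPM in KO1.

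Leaving out 1 library at a time moved the log2 fold changes of several members across 0. In the small intestine, Ms4a1 ranged from -6.32 to 6.38, Cd79a from -12.0 to 1.76, Cd79b from -5.63 to 0.50, Pax5 from -7.78 to 2.51, Cr2 from -12.6 to 5.14, Fcer2a from -11.6 to 8.47, Cd22 from -6.33 to 1.78, Blk from -4.61 to 1.95, and Ebf1 from -3.71 to 0.75. In the spleen, Ms4a1 ranged from -0.40 to 0.16, Cr2 from -0.27 to 0.47, Fcer2a from -0.34 to 0.15, Cd22 from -0.30 to 0.0013, and Blk from -0.42 to 0.053. In the heart, Ms4a1 ranged from -3.72 to 1.53, Cd79a from -2.60 to 1.30, Cd79b from -1.55 to 0.072, Cd22 from -3.74 to 1.91, Blk from -0.62 to 0.12, and Ebf1 from -0.14 to 0.39. Pax5, Cr2 and Fcer2a in the heart gave no value without WT2, since they no longer passed the filter. Where a group was left with 1 library, that library was assumed to vary like the other genotype. With at least 10 counts in every library, the heart median was -0.30 over the members left. Without Ebf1 the summed level of the members in the kidney was 7.01 TPM as a median. At 0 to 40 counts per gene, as in most liver, kidney and heart libraries, depth limits what can be seen.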
